A study of Mus musculus with 12 samples.

Results

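Most steps of glycolysis and gluconeogenesis can be run by several isoforms, each the product of its own gene, and tissues differ in which one they use. The genes described here are 34 enzymes, regulators and transporters of these pathways, followed across 12 mouse bulk RNA-seq libraries. They are the entries of the deposited expression table whose Ensembl mouse gene identifier maps to a list of 34 symbols, and all 34 were found among its 24432 genes. They cover 18 steps, and 11 of these steps have more than 1 gene on the list.

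There were 4 groups with 3 libraries each. Primary kidney tumors and lung metastases were dissected from Slc34a1CreERT2;Lats1/2flox/flox mice of mixed background, 4 months after a series of 3 tamoxifen injections given at 1 month of age. Slc34a1, the gene of a phosphate transporter, drives the Cre in proximal tubule cells, and the recombination removes the Hippo pathway kinases Lats1 and Lats2. Allograft tumors grew for 6 weeks from Lats1-/-;Lats2-/- cells of mixed source placed under the renal capsule of NOD/scid hosts, which were 6 to 8 weeks old at injection and lack T and B cells. The sources used here do not say whether these cells were 1 clone. The comparison group was proximal tubule cells sorted by FACS from adult Slc34a1CreERT2;Lats1c/c;Lats2c/+;RosaTomato mice, which also carried Cre and conditional Lats alleles. The labels call these cells wild type without saying if any Lats allele had been deleted. The labels do not tie the 3 libraries of a group to separate animals. By Xist and Ddx3y, given below, the primary tumors came from more than 1 mouse. Every p-value below rests on the spread between libraries. This spread may be technical in part, or in full outside the primary tumors.

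Glycolysis breaks glucose down to pyruvate, which lactate dehydrogenase can turn into lactate. Gluconeogenesis runs the reversible steps backwards and replaces the irreversible ones by enzymes of its own: pyruvate carboxylase, phosphoenolpyruvate (PEP) carboxykinase, fructose bisphosphatase and glucose 6-phosphatase. The proximal tubule is known as the glucose-making segment of the kidney, which takes up lactate and uses little glucose itself.

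Levels are FPKM as the authors deposited them, that is, fragments scaled by transcript length and by library size. Because they are scaled by length, the levels of different isoforms can be set side by side. Changes are log2 differences of FPKM + 1 with their SE, 3 libraries on each side, tested with limma across 16313 genes, and a gene is called higher or lower, or said to rise or fall, at an adjusted p under 0.05. The + 1 understates changes of genes with few reads. All 34 members passed the filter of 1 FPKM in at least 3 libraries, but Hk2, Hk3, Pfkfb1, Eno2 and Slc16a3 lay under 1 FPKM in every proximal tubule library and passed through tumor libraries alone, so that filter favours a difference for these 5.

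The values carry limits of scale and of tissue makeup. Over all tested genes the median change against proximal tubule was 0.59 in primary tumors, 0.68 in metastases and 0.66 in allograft tumors, so a member's change is to be read against these shifts. Median-of-ratios scaling brought the medians to 0.08, 0.20 and 0.19, and rescaling each library to 1 sum (TPM) to -0.29, -0.18 and -0.37. As deposited, 7861 genes were higher and 800 lower in primary tumors, 8803 and 2355 in metastases and 8521 and 2755 in allograft tumors. Under median-of-ratios scaling these were 4161 and 2940, 6099 and 4366, and 6106 and 4583, and under TPM 3028 and 5407, 4511 and 5817, and 3503 and 6908. The microRNA gene Mir6236 took 23.5 to 42.8% of summed FPKM in the tumor libraries and at most 0.00775% in proximal tubule libraries. The TPM sum includes this gene, so TPM scales the other genes of the tumor libraries down by its share. Calls lost, made or turned under TPM are to be read with that limit. The sources used here do not say if tumor and tubule libraries were prepared alike. Any difference in preparation or processing cannot be told apart from group. Summed FPKM of 8 proximal tubule markers was 72.8, 3559 and 767 in primary tumors 1 to 3, 31.3 to 40.8 in metastases, 10.6 to 29.8 in allograft tumors and 4915 to 5819 in the sorted cells. The tumors were unsorted: 10 myeloid markers summed to 412 to 2766 FPKM in primary tumors, 5246 to 5943 in metastases, 1699 to 6537 in allograft tumors and 7.55 to 9.10 in the sorted cells, and 6 lung epithelium markers to 12180 to 19330 FPKM in metastases. The sums of 7 fibroblast markers were 160 to 936 FPKM in primary tumors, 427 to 537 in metastases, 942 to 2372 in allograft tumors and 2.62 to 4.93 in the sorted cells. None of the alternative settings used below adjusts for the cell types present. The sorted cells also held 8 markers of the thick limb, distal tubule and collecting duct at 312 to 548 FPKM in sum. These summed to 326, 2128 and 4546 FPKM in primary tumors 1 to 3, 1.08 to 1.38 in metastases and 1.22 to 7.20 in allograft tumors. In bulk RNA, fewer cells of a type and less RNA per cell cannot be told apart. Lats1 stood at 5.6 to 14.7 FPKM and Lats2 at 12.2 to 22.5 FPKM in the tumors, against 11.9 to 12.8 and 10.5 to 11.0 FPKM in the sorted cells, and a gene-level FPKM does not resolve a deleted exon. By Xist and Ddx3y, primary tumors 2 and 3 were male, primary tumor 1, the metastases and the sorted cells female, and the allograft tumors carried both genes. Depth was estimated, in units of 1e+06 fragments, at 12.8 to 20.7 in tumors and 5.19 to 6.84 in sorted cells, so that 1 fragment of a transcript of 2 kb was worth 0.0241 to 0.0391 FPKM and 0.0730 to 0.0964 FPKM in these libraries.

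Against proximal tubule cells members moved in both directions. The gluconeogenic genes G6pc, Fbp1, Pck1 and Pcx and the isoforms Pklr and Ldhb fell in metastases and allograft tumors, while Pkm and Pfkp rose in all 3 tumor groups. Hk2 and Slc16a3 were also called higher in all 3 groups, but both passed the filter through tumor libraries alone. In primary tumors the Hk2 and Slc16a3 calls ended under quantile scaling. In primary tumors 10 of 34 members were called higher and 3 lower, where 48.2% and 4.90% of all tested genes were (53.1% in either direction). In metastases 17 were higher and 7 lower (54.0% and 14.4% of all tested genes, 68.4% in either direction), and in allograft tumors 20 were higher and 7 lower (52.2% and 16.9%, 69.1% in either direction). The share of members called higher thus lay near that of all genes in metastases and allograft tumors and under it in primary tumors. The median member changed by 0.38 in primary tumors, 0.64 in metastases and 1.18 in allograft tumors. Libraries of the 2 groups did not overlap for 14 members in primary tumors, 28 in metastases and 29 in allograft tumors, against 62.3%, 83.5% and 75.6% of all tested genes. Among the members, TPM gave 5 higher and 14 lower in primary tumors, 9 and 15 in metastases and 8 and 13 in allograft tumors, and median-of-ratios scaling gave 8 and 7, 12 and 10, and 13 and 8. The 3 comparisons share the proximal tubule libraries, so they are set side by side and not counted as separate support. Of the calls against proximal tubule, 35 of 64 held under TPM, median-of-ratios and quantile scaling, and these were 2 of 10 higher calls in primary tumors and 8 of 17 and 8 of 20 in metastases and allograft tumors. The higher calls include genes that passed the filter through tumor libraries alone: Hk2, Hk3, Eno2 and Slc16a3 in all 3 groups, and Pfkfb1 in metastases and allograft tumors. Of these, Hk2, Hk3 and Slc16a3 were among those that held in metastases and allograft tumors, as was Eno2 in allograft tumors. All 7 lower calls in metastases and all 7 in allograft tumors held under the 3 scalings. The 3 lower calls in primary tumors became 10 without primary tumor 2, 1 without primary tumor 3 and 1 without proximal tubule library 1.

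**Figure D1:**
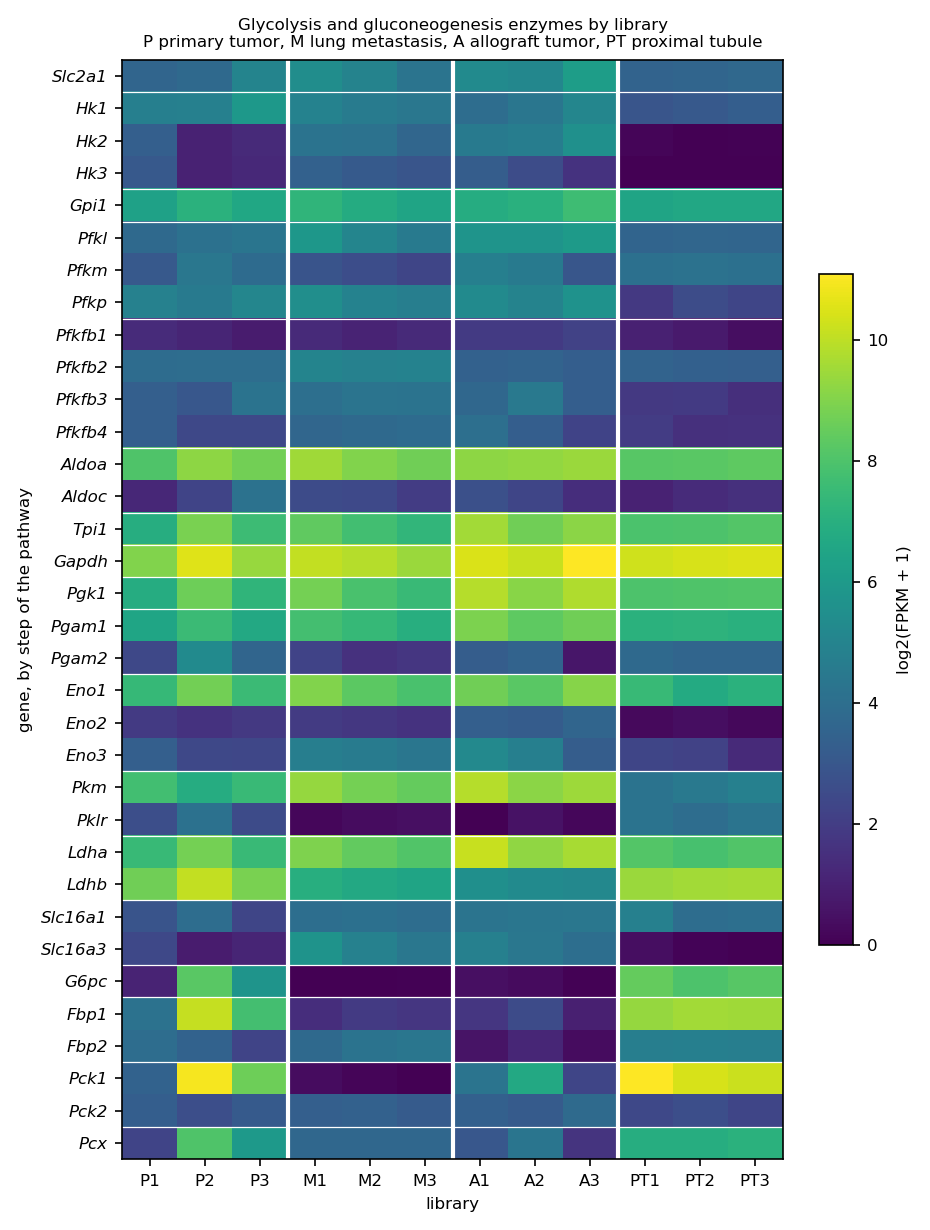
Heatmap of log2(FPKM + 1) for the 34 genes (down the page, by step) in the 12 libraries (P primary tumor, M lung metastasis, A allograft tumor, PT proximal tubule). G6pc, Fbp1, Pck1 and Pcx are bright in the tubule cells and in primary tumor 2. G6pc, Fbp1 and Pck1 are dark in the metastases, where Pcx had 12.1 to 12.2 FPKM.

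Glucose enters most cells through Slc2a1 (GLUT1). Slc2a1 had 11.2, 13.0 and 30.7 FPKM in primary tumors, 42.9, 29.8 and 18.3 in metastases, 39.0, 33.9 and 70.2 in allograft tumors and 10.7, 11.3 and 12.5 in tubule cells. Every metastasis and allograft tumor lay above the tubule libraries, while primary tumors reached into their range. Slc2a1 was called higher in metastases (1.25 ± 0.41, adjusted p = 0.0188) and allograft tumors (1.89 ± 0.41, adjusted p = 0.00185). The metastasis call ended under all 3 scalings (0.24 to 0.79) and without metastasis 1 (0.97, adjusted p = 0.0790) or tubule library 1 (1.2, adjusted p = 0.0512), and the allograft call ended under TPM (0.53, adjusted p = 0.298).

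Hexokinases trap glucose as glucose 6-phosphate, and the tubule cells listed almost none but Hk1. Hk1, the housekeeping form, stood at 26.8, 27.4 and 59.2 FPKM in primary tumors, 29.2, 23.1 and 19.8 in metastases, 14.4, 19.5 and 33.5 in allograft tumors and 6.49, 7.60 and 9.08 in tubule cells. Hk2, the insulin-responsive form of muscle and fat that many tumors express, stood at 9.14, 1.06 and 1.47 FPKM in primary tumors, 17.6, 17.0 and 11.7 in metastases, 22.0, 24.8 and 46.4 in allograft tumors and 0.103, 0.0266 and 0.0575 in tubule cells. Both genes were higher in every tumor library than in any tubule library. Hk2 changed by 1.81 ± 0.52 in primary tumors (adjusted p = 0.0139), 3.93 ± 0.52 in metastases (adjusted p = 8.85e-05) and 4.84 ± 0.52 in allograft tumors (adjusted p = 2.22e-05). Primary tumor 1 carried much of the primary value, which was 1.09 without it and still called (adjusted p = 0.0134) and no call was made under quantile scaling (0.70, adjusted p = 0.350), with a pseudocount of 5 (0.70, adjusted p = 0.0960) or in a fit of these 2 groups alone (adjusted p = 0.0565). Hk1 changed by 2.07 ± 0.35 in primary tumors (adjusted p = 8.28e-04), 1.52 ± 0.35 in metastases (adjusted p = 0.00294) and 1.36 ± 0.35 in allograft tumors (adjusted p = 0.00541). Under TPM none of these Hk1 calls held (1.03, adjusted p = 0.0542 in primary tumors, 0.53 in metastases and 0.045 in allograft tumors). The metastasis call also ended under quantile scaling (0.98, adjusted p = 0.0564). The allograft call also ended under median-of-ratios (0.76, adjusted p = 0.0827) and quantile scaling (0.75, adjusted p = 0.129).

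Hk3, the hexokinase of blood cells, was listed at 0 in all 3 tubule libraries. It stood at 7.59, 1.07 and 1.44 FPKM in primary tumors, 9.98, 7.84 and 6.53 in metastases and 8.63, 4.91 and 2.10 in allograft tumors, and it was called higher in each group (adjusted p = 0.0141, 3.56e-04 and 0.00153). The primary call ended with a pseudocount of 5 (adjusted p = 0.0762) and under quantile normalization (adjusted p = 0.148). The 10 myeloid markers moved with it in the primary and the allograft libraries: they summed to 2766, 412 and 563 FPKM in the primary tumors and to 6537, 3596 and 1699 FPKM in the allograft tumors, in library order. In metastases 1 to 3 those sums were 5246, 5943 and 5690 FPKM. None of the 10 was at 0 throughout a tumor group. Hk2 and Slc16a3 (4.29, 0.810 and 1.21 FPKM) lay in the same order as these sums in primary tumors 1 to 3. Slc16a3 did so in allograft tumors 1 to 3 too (27.5, 19.9 and 15.2 FPKM), where Hk2 ran the other way (22.0, 24.8 and 46.4 FPKM). Neither gene lay in the order of the sums in metastases. The part of myeloid cells in the Hk3, Hk2 and Slc16a3 levels was not tested. As a share of the summed hexokinase FPKM, Hk2 made 21, 3.59 and 2.37% in primary tumors, 30.8 to 35.4% in metastases, 48.9 to 56.6% in allograft tumors and 0.348 to 1.56% in tubule cells. Hk2 was the leading hexokinase in allograft tumors, and Hk1 led in the other 3 groups. A share does not depend on a library's scaling factor, and for the shares of Hk2 in each tumor group against tubule cells the exact permutation test (two-sided, 3 against 3) gave p = 0.10, the smallest it can give.

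Gpi1, which turns glucose 6-phosphate into fructose 6-phosphate, was among the 4 members called in none of the 3 comparisons with tubule cells on the deposited scale, but under TPM it was lower in primary tumors (-1.02, adjusted p = 0.0166), metastases (-0.80, adjusted p = 0.0377) and allograft tumors (-0.82, adjusted p = 0.0334). Its levels were 80.1 to 135 FPKM in primary tumors, 88.3 to 154 in metastases, 117 to 201 in allograft tumors and 88.9 to 99.8 in tubule cells.

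Phosphofructokinase commits sugar to glycolysis, and its platelet form Pfkp rose in all 3 tumor groups. Pfkp had 28.5, 22.7 and 33.4 FPKM in primary tumors, 43.6, 29.2 and 25.5 in metastases, 38.2, 29.9 and 49.4 in allograft tumors and 2.53, 5.02 and 3.93 in tubule cells. The tumor and tubule libraries stood well apart, with changes of 2.61 ± 0.27, 2.80 ± 0.27 and 3.06 ± 0.27 in primary tumors, metastases and allograft tumors (adjusted p = 5.86e-05, 1.48e-05 and 9.12e-06), and these calls held under every alternative run. The liver form Pfkl had 13.0, 16.7 and 18.9 FPKM in primary tumors, 57.4, 32.5 and 22.3 in metastases, 52.9, 52.2 and 65.2 in allograft tumors and 11.1, 11.7 and 11.4 in tubule cells. It was called higher in metastases (1.53 ± 0.28, adjusted p = 7.63e-04, but 0.52, adjusted p = 0.184, under TPM) and in allograft tumors (2.22 ± 0.28, adjusted p = 6.20e-05).

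Pfkm had 7.49, 20.1 and 13.8 FPKM in primary tumors, 6.43, 5.10 and 3.97 in metastases, 26.3, 22.6 and 6.88 in allograft tumors and 16.3, 17.1 and 16.3 in tubule cells. It fell in metastases (-1.53 ± 0.45, adjusted p = 0.0112) and was called in neither other group, though under TPM it was lower in primary tumors (-1.37, adjusted p = 0.0248) and allograft tumors (-1.34, adjusted p = 0.0210) too. In allograft tumors 1 and 2, where Pfkm was high, 7 skeletal muscle markers summed to 799 and 674 FPKM, and in allograft tumor 3, where it was low, to 5.23 FPKM. Acta1, the skeletal muscle actin gene and the first of these markers, stood at 267, 227 and 1.00 FPKM in allograft tumors 1 to 3. The muscle sums were 2.11 to 2.96 FPKM in primary tumors, 3.19 to 5.20 in metastases and 0.238 to 0.973 in tubule cells, and their part in the Pfkm level was not tested. Of the summed phosphofructokinase FPKM, Pfkm made 15.3 to 33.8% in primary tumors, 5.99 to 7.66% in metastases, 5.67 to 22.4% in allograft tumors and 50.6 to 54.5% in tubule cells. By the group mean Pfkp led in primary tumors, Pfkl in metastases and allograft tumors, and Pfkm in tubule cells. In metastasis 3 alone of the metastases Pfkp (49.3%) stood over Pfkl (43.1%).

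The 4 PFKFB enzymes set the level of fructose 2,6-bisphosphate, which speeds phosphofructokinase and slows fructose bisphosphatase. Pfkfb3, the form with the strongest kinase activity, had 9.32, 7.10 and 17.8 FPKM in primary tumors, 15.8, 18.1 and 17.8 in metastases, 12.1, 21.4 and 8.93 in allograft tumors and 2.58, 2.66 and 1.81 in tubule cells. It rose in primary tumors (1.80 ± 0.34, adjusted p = 0.00150), metastases (2.45 ± 0.34, adjusted p = 1.20e-04) and allograft tumors (2.10 ± 0.34, adjusted p = 2.80e-04). Under TPM the primary (0.90, adjusted p = 0.109) and allograft calls (0.91, adjusted p = 0.0936) ended, and the primary call ended under quantile normalization too (0.90, adjusted p = 0.0768).

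Pfkfb2, the heart and kidney form, had 14.3, 14.7 and 14.8 FPKM in primary tumors, 31, 28.7 and 29.0 in metastases, 9.80, 10.7 and 8.86 in allograft tumors and 10.4, 9.46 and 9.31 in tubule cells. The metastases stood apart from every other library, at 1.51 ± 0.12 over tubule cells (adjusted p = 4.74e-06) and 0.97 ± 0.12 over primary tumors (adjusted p = 4.01e-04), and allograft tumors changed by -1.51 ± 0.12 against metastases (adjusted p = 1.80e-05). Against tubule cells that rise was 0.51 (adjusted p = 0.0743) under TPM. The smaller primary rise (0.54 ± 0.12, adjusted p = 0.00382) turned to -0.48 under TPM, -0.066 under median-of-ratios and -0.029 under quantile scaling, and in allograft tumors Pfkfb2, at 0.00 ± 0.12 as deposited, was called lower under all 3 scalings (-1.25 to -0.54). Its levels are uncertain, since 18.8% of the 31-base stretches of Pfkfb2 transcripts also occur in other listed genes. Pfkfb4, a form induced in many tumors, spanned 4.24 to 9.22 FPKM in primary tumors, 11.6 to 13.8 in metastases, 3.65 to 15.5 in allograft tumors and 1.92 to 2.92 in tubule cells. It rose in metastases (2.07 ± 0.41, adjusted p = 0.00117) and in allograft tumors (1.49 ± 0.41, adjusted p = 0.00769). The allograft call of Pfkfb4 ended under all 3 scalings (0.36 to 1.00). Pfkfb1, the liver form, stayed at 3.52 FPKM or less in every library. Its rise was 0.50 ± 0.20 in metastases (adjusted p = 0.0428), which turned to -0.81 under quantile normalization and -0.019 under TPM and ended without any 1 metastasis or without tubule library 2 or 3. In allograft tumors its rise was 1.25 ± 0.20 (adjusted p = 2.26e-04), which ended under TPM (0.41) and quantile normalization (0.24). In primary tumors quantile normalization called Pfkfb1 lower (-0.87, adjusted p = 0.00792).

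Aldolase splits fructose 1,6-bisphosphate. Aldoa, the muscle and general form, had 259, 598 and 423 FPKM in primary tumors, 723, 505 and 406 in metastases, 589, 634 and 691 in allograft tumors and 295, 306 and 322 in tubule cells. Metastases and allograft tumors lay above the tubule libraries, at 0.78 ± 0.31 (adjusted p = 0.0416) and 1.05 ± 0.31 (adjusted p = 0.0105). Neither call held under any of the 3 scalings, and under TPM the changes turned to -0.28 and -0.38. Aldoc, the brain form, was called in none of the 6 comparisons, though higher in primary tumors without primary tumor 1 (1.90, adjusted p = 0.0128), and it reached 16.9 FPKM in primary tumor 3, with 1.12 to 1.93 FPKM in tubule cells.

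Of the genes from triose phosphate to phosphoglycerate, Tpi1, Pgk1 and Pgam1 were called higher in allograft tumors, and on the deposited scale none of them was called in primary tumors or metastases. Under TPM all 3 were called lower in primary tumors (-1.55 to -1.28) and metastases (-1.29 to -0.78), and Pgam1 was also lower in primary tumors under median-of-ratios scaling (-0.83, adjusted p = 0.0299). Pgk1, the first ATP-forming step, had 116, 400 and 152 FPKM in primary tumors, 437, 242 and 183 in metastases, 938, 549 and 866 in allograft tumors and 257, 261 and 268 in tubule cells. Pgam1 had 92.1, 185 and 102 FPKM in primary tumors, 221, 171 and 122 in metastases, 475, 319 and 415 in allograft tumors and 135, 142 and 132 in tubule cells. Tpi1, which interconverts the triose phosphates, had 121, 458 and 195 FPKM in primary tumors, 333, 212 and 155 in metastases, 741, 414 and 580.2 in allograft tumors and 250, 252 and 279 in tubule cells. In all 3 genes the allograft libraries lay above the tubule libraries and metastases 1 to 3 spread across them. The allograft changes were 1.54 ± 0.45 for Pgk1 (adjusted p = 0.0108), 1.54 ± 0.29 for Pgam1 (adjusted p = 8.70e-04) and 1.11 ± 0.45 for Tpi1 (adjusted p = 0.0464). Under TPM they were 0.12, 0.12 and -0.31, and the Pgk1 and Tpi1 calls ended under all 3 scalings. The Tpi1 call also ended without allograft tumor 1 or 3 or any 1 tubule library. For Pgam1, 37.1% of 31-base stretches are shared with the copy Pgam1-ps2, so its level is uncertain. Gapdh, the dehydrogenase of this stretch, was called in none of the 6 comparisons on the deposited scale and ranged from 502 to 1477 FPKM in primary tumors, 677 to 1069.6 in metastases, 1158 to 2163 in allograft tumors and 1232 to 1441 in tubule cells, and 26.5% of its stretches are shared with Gm7336. It was lower in primary tumors without primary tumor 2 (-1.22, adjusted p = 0.0110). It was lower in all 3 tumor groups under TPM (-1.88, -1.69 and -1.24) and quantile scaling (-1.45, -1.55 and -1.25), and in primary tumors (-1.43, adjusted p = 0.0129) and metastases (-1.23, adjusted p = 0.0164) under median-of-ratios scaling. The muscle mutase Pgam2 was not called on the deposited scale either, with 4.35, 38.5 and 11.5 FPKM in primary tumors, 2.01 to 3.63 in metastases, 8.72, 10.5 and 0.587 in allograft tumors and 11.4 to 12.8 in tubule cells. It was called lower in metastases under all 3 scalings (-2.67 to -2.36, adjusted p = 0.00507 to 0.0181) and in allograft tumors under TPM (-2.25, adjusted p = 0.0127). Its 2 higher allograft libraries were those with high muscle markers.

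Enolase turns phosphoglycerate into PEP. Eno2, the neuronal form, had 2.66, 2.08 and 2.57 FPKM in primary tumors, 2.81, 2.49 and 2.09 in metastases, 9.17, 8.49 and 11.2 in allograft tumors and 0.208, 0.314 and 0.176 in tubule cells. The allograft tumors were highest and tubule cells lowest, with no overlap. Its changes against tubule cells were 1.48 ± 0.15, 1.49 ± 0.15 and 3.10 ± 0.15 in primary tumors, metastases and allograft tumors (adjusted p = 5.73e-05, 2.09e-05 and 4.93e-07), and the primary (0.19) and metastasis (0.18) calls ended under quantile normalization. Eno3, the muscle form, had 9.39, 4.28 and 4.13 FPKM in primary tumors, 26, 23.7 and 19.4 in metastases, 36.5, 27.0 and 8.72 in allograft tumors and 3.96, 3.61 and 1.46 in tubule cells. It rose in metastases (2.64 ± 0.48, adjusted p = 7.24e-04), where muscle markers were at 3.19 to 5.20 FPKM, and in allograft tumors (2.5 ± 0.48, adjusted p = 9.36e-04), where the libraries with the higher Eno3 had 799 and 674 FPKM of them.

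Eno1, the general form, is reported as uncertain because 27.7% of its 31-base stretches also occur in its near-identical copy Eno1b. It had 173, 423 and 189 FPKM in primary tumors, 504, 312 and 241 in metastases, 412, 306 and 543 in allograft tumors and 179, 109 and 135 in tubule cells. Eno1b had 54.8, 195 and 88.6 FPKM in primary tumors, 162, 98.7 and 73.2 in metastases, 242, 179 and 316 in allograft tumors and 163, 215 and 259 in tubule cells. Eno1 was called higher in metastases (1.28 ± 0.39, adjusted p = 0.0145) and allograft tumors (1.56 ± 0.39, adjusted p = 0.00486), but the sum of both genes was not (0.33, adjusted p = 0.479 in metastases and 0.88, adjusted p = 0.0698 in allograft tumors). The metastasis call of Eno1 also ended without metastasis 1 (0.98, adjusted p = 0.0639) or tubule library 2 (1.11, adjusted p = 0.0552). Both Eno1 calls ended under TPM (0.21, adjusted p = 0.614 in metastases and 0.14, adjusted p = 0.752 in allograft tumors). They ended under median-of-ratios scaling too (0.67, adjusted p = 0.139 and 0.91, adjusted p = 0.0509).

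Pyruvate kinase makes pyruvate and ATP from PEP, and here the 2 genes moved apart. Pkm (chr9:59656368-59679375, plus strand), which encodes the M1 and M2 forms, had 213, 117 and 184 FPKM in primary tumors, 636, 442 and 351 in metastases, 931, 574 and 707 in allograft tumors and 17.7, 21.6 and 27.9 in tubule cells. Every tumor library lay far above the tubule libraries, and a gene-level FPKM does not separate M1 from M2. Pkm lay in the order of the myeloid marker sums in primary tumors 1 to 3 (2766, 412 and 563 FPKM). It did not in metastases or allograft tumors, and the part of myeloid cells in the Pkm level was not tested. The rises of 2.86 ± 0.30 in primary tumors, 4.33 ± 0.30 in metastases and 4.97 ± 0.30 in allograft tumors (adjusted p = 6.29e-05, 2.32e-06 and 1.75e-06) held under every alternative run, and the smallest, under TPM in primary tumors, was 1.77 (adjusted p = 0.00175).

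Pklr (chr3:89136142-89146784, plus strand), the liver and red cell kinase, had 5.28, 16.6 and 4.73 FPKM in primary tumors, 0.158, 0.286 and 0.379 in metastases, 0.0220, 0.468 and 0.160 in allograft tumors and 17.5, 14.7 and 18.1 in tubule cells. Metastases and allograft tumors were near 0, at -3.80 ± 0.36 and -3.88 ± 0.36 against tubule cells (adjusted p = 1.28e-05 and 1.12e-05). In primary tumors the fall was -1.04 ± 0.36 (adjusted p = 0.0327), and it was not called without primary tumor 1 (-0.82, adjusted p = 0.103), primary tumor 3 (-0.75, adjusted p = 0.115), in a fit of these 2 groups alone (adjusted p = 0.109) or without any 1 tubule library (-1.13 to -0.99, adjusted p = 0.0548 to 0.0863). Pkm made 97.6, 87.6 and 97.5% of summed pyruvate kinase FPKM in primary tumors, at least 99.9% in metastases and allograft tumors, and 50.2, 59.5 and 60.7% in tubule cells, so the same gene led in all 4 groups, and 21.1% of the 31-base stretches of Pklr are shared with Hcn3.

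**Figure D2:**
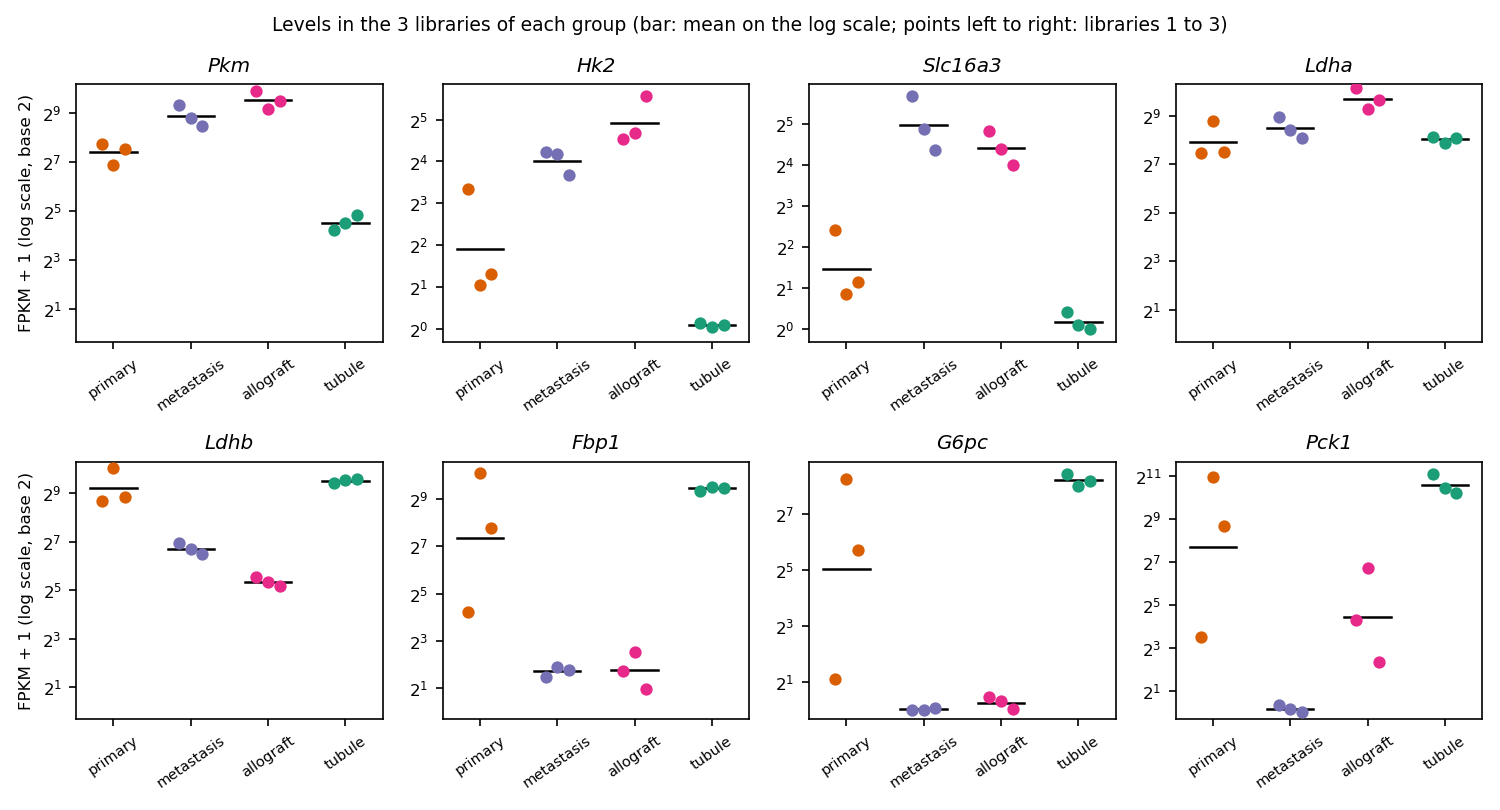
FPKM + 1 on a log axis (base 2) of 8 genes in the 3 libraries of each group (points), with the mean on the log scale (bar). Pkm, Hk2 and Slc16a3 lie higher in all tumor groups than in tubule cells, while Ldhb, Fbp1, G6pc and Pck1 lie lower in metastases and allograft tumors, and Fbp1, G6pc and Pck1 spread widely in the primary tumors.

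Lactate dehydrogenase exchanges pyruvate and lactate, and its main subunit was Ldha in metastases and allograft tumors and Ldhb in primary tumors and tubule cells. Ldha (chr7:46841475-46855627, plus strand), the muscle subunit, had 176, 435 and 182 FPKM in primary tumors, 497, 342 and 268 in metastases, 1132, 612 and 788 in allograft tumors and 276, 235 and 269 in tubule cells. Ldhb (chr6:142490249-142507957, minus strand), the heart subunit, had 407, 1060.4 and 462 FPKM in primary tumors, 123, 102 and 87.8 in metastases, 45.1, 39.1 and 35.3 in allograft tumors and 680.1, 748 and 762 in tubule cells. Ldhb was lowest in allograft tumors and next lowest in metastases, and the primary tumors overlapped the tubule cells. Ldhb changed by -2.81 ± 0.32 in metastases (adjusted p = 3.39e-05) and -4.17 ± 0.32 in allograft tumors (adjusted p = 4.57e-06), and both calls held under every alternative run. In primary tumors it was not called (-0.32 ± 0.32, adjusted p = 0.412), but was called lower without primary tumor 2 (-0.75, adjusted p = 0.00695) and under TPM (-1.43, adjusted p = 0.00363), median-of-ratios (-0.98, adjusted p = 0.0207) and quantile scaling (-0.82, adjusted p = 0.0164). Ldha rose in allograft tumors (1.65 ± 0.38, adjusted p = 0.00263), not after TPM rescaling (0.23, adjusted p = 0.539), and was not called in metastases (0.46 ± 0.38, adjusted p = 0.295). In primary tumors it was lower under TPM alone of the 3 scalings (-1.22, adjusted p = 0.00868).

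Ldha made 30.1, 29.1 and 28.2% of summed lactate dehydrogenase FPKM in primary tumors, 80.2, 77.1 and 75.3% in metastases, 96.2, 94.0 and 95.7% in allograft tumors and 28.9, 23.9 and 26.1% in tubule cells. The primary tumors overlapped the tubule cells in this share (exact permutation p = 0.20, two-sided, 3 against 3). Metastases and allograft tumors did not overlap them, and allograft tumors did not overlap metastases, each at p = 0.10 in the same exact test.

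Lactate leaves or enters cells with a proton through the monocarboxylate transporters. Slc16a3 (MCT4; chr11:120948480-120960868, plus strand), the low-affinity form known for lactate export from glycolytic cells, had 4.29, 0.810 and 1.21 FPKM in primary tumors, 50.5, 28.7 and 19.8 in metastases, 27.5, 19.9 and 15.2 in allograft tumors and 0.319, 0.0625 and 0 in tubule cells. Slc16a1 (MCT1; chr3:104638668-104658462, plus strand), the more general form, had 6.48, 14.6 and 3.94 FPKM in primary tumors, 15.2, 15.9 and 14.8 in metastases, 18.4, 19.2 and 20.3 in allograft tumors and 27.8, 14.6 and 15.7 in tubule cells. Slc16a3 was thus near 0 in tubule cells, and metastases and allograft tumors overlapped above every primary tumor. In Slc16a1 metastases and allograft tumors lay within the range of the tubule cells, and primary tumors lay at or under its lower end. Slc16a3 rose by 4.82 ± 0.43 in metastases (adjusted p = 8.78e-06) and 4.25 ± 0.43 in allograft tumors (adjusted p = 1.61e-05), under every alternative run. In primary tumors its rise of 1.31 ± 0.43 (adjusted p = 0.0256) ended without primary tumor 1 (0.84, adjusted p = 0.0787), without tubule library 2 or 3 (adjusted p = 0.0668 and 0.0736), under TPM (0.91, adjusted p = 0.0870) and under quantile normalization (0.25, adjusted p = 0.683). Slc16a1 fell in primary tumors (-1.23 ± 0.36, adjusted p = 0.0163), but not without primary tumor 3 (-0.86, adjusted p = 0.0536) or tubule library 1 (-0.95, adjusted p = 0.0660), nor in a fit of these 2 groups alone (adjusted p = 0.0837). Under TPM it was also lower in metastases (-1.27, adjusted p = 0.00874) and allograft tumors (-1.28, adjusted p = 0.00805). Slc16a3 made 5.25 to 39.9% of the FPKM of the pair in primary tumors, 57.3 to 76.9% in metastases, 42.7 to 59.9% in allograft tumors and 0 to 1.13% in tubule cells.

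The 250 bases before a start of transcription are shown for these 2 pairs, since 1 member of each moved and the other did not, or moved the other way. Sequences are RefSeq, build GRCm38.p6, written 5′ to 3′ along the gene's strand. Capitals mark each ACGTG, the core bound by the hypoxia-inducible factors, on either strand (CACGT on the other), and run together where 2 matches overlap in the palindrome CACGTG.
Ldha chr7:46845554-46845803 (plus strand): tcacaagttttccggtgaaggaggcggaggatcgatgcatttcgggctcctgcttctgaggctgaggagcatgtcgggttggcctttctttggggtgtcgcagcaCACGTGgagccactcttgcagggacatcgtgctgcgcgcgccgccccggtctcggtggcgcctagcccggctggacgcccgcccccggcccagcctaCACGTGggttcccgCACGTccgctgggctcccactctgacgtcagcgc
Ldhb chr6:142507958-142508207 (minus strand): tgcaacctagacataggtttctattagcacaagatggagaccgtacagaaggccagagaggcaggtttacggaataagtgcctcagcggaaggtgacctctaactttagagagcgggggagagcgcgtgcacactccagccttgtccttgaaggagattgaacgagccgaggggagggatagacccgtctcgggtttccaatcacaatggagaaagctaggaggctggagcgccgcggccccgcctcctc
Slc16a3 chr11:120948817-120949066 (plus strand): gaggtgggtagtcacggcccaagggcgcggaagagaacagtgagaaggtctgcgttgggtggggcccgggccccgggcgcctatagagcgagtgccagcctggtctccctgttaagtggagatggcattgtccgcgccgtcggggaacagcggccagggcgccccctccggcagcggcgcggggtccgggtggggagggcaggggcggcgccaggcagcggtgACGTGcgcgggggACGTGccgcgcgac
Slc16a1 chr3:104638414-104638663 (plus strand): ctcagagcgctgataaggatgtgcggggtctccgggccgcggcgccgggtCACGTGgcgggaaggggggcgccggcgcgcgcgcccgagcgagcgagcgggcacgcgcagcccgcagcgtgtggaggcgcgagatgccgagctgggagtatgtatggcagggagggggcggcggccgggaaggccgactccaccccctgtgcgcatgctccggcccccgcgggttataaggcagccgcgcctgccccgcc
The Ldha window shown held 5 matches counted over both strands, of which 4 lie in 2 copies of CACGTG. A second RefSeq start of Ldha, with its window at chr7:46846832-46847081, held 0 matches, as did the Ldhb window. Slc16a3 and Slc16a1 held 2 matches each. Over all 53 windows matched to the 34 members, 35.8% held ACGTG on either strand, against 16.6% of 32851 RefSeq windows of the same length. The windows with the motif belonged to 15 of 34 members: Aldoa, Fbp2, Hk2, Hk3, Ldha, Pcx, Pfkfb2, Pfkfb3, Pfkm, Pgam1, Pgk1, Pkm, Slc16a1, Slc16a3 and Slc2a1. They include Fbp2 and Pcx, which fell in allograft tumors. CACGTG alone was in 13.2% of member windows and 6.02% of all, and GGAATG, the core bound by TEAD factors, in 11.3% and 12.6%. A match describes the letters of the window and shows no binding.

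**Figure D3:**
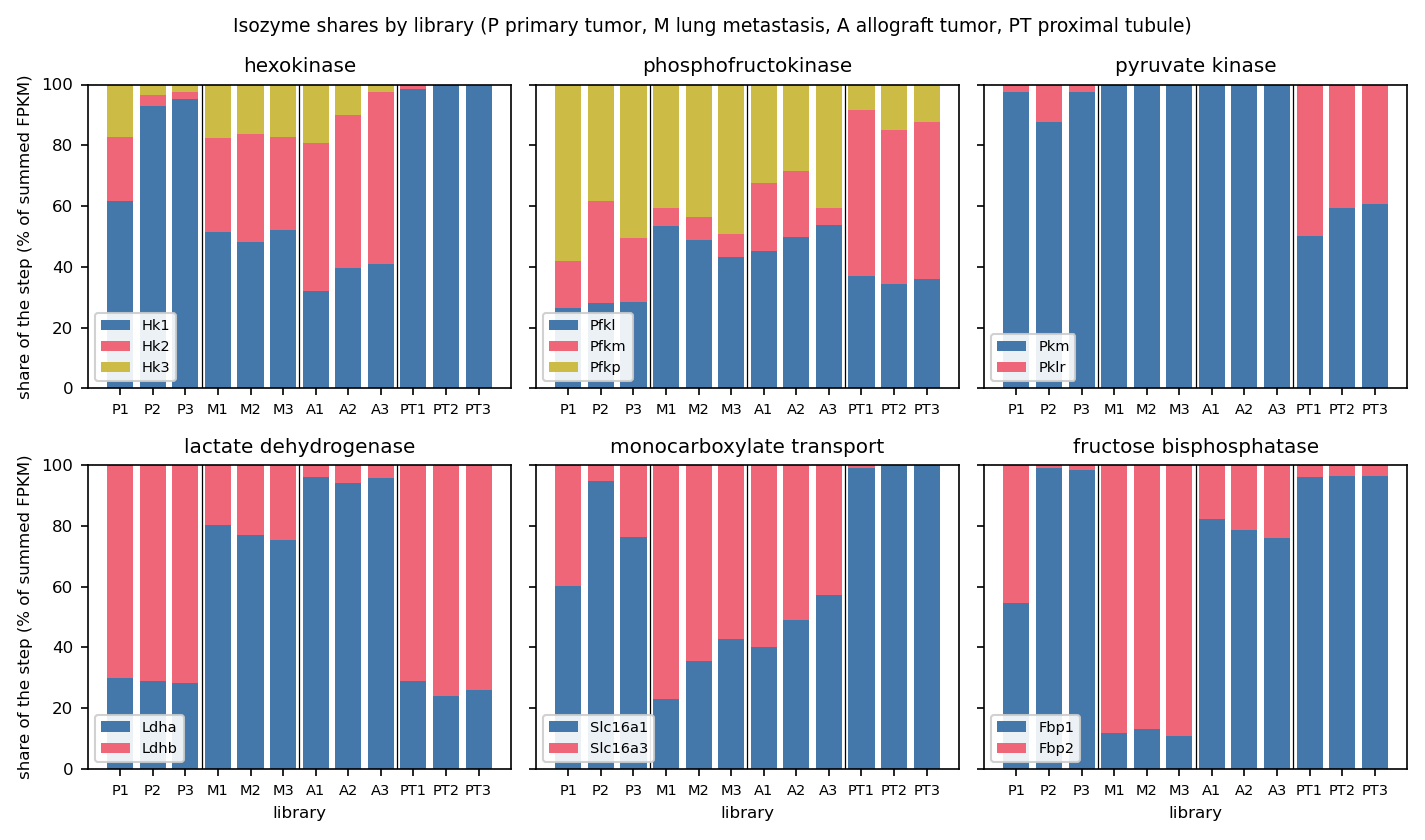
Share of each isoform (% of the step's summed FPKM) in the 12 libraries for 6 steps (P primary tumor, M lung metastasis, A allograft tumor, PT proximal tubule). Ldha makes 75.3 to 80.2% in metastases and 94.0 to 96.2% in allograft tumors against 23.9 to 28.9% in tubule cells, and Fbp2 leads its step in the metastases alone.

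Of the genes of gluconeogenesis, G6pc, Pck1 and Fbp1 were at or near 0 in metastases and high in every tubule library. G6pc (chr11:101367561-101377903, plus strand), the catalytic subunit of glucose 6-phosphatase, had 1.15, 306 and 51.9 FPKM in primary tumors, 0, 0 and 0.0607 in metastases, 0.370, 0.244 and 0.0384 in allograft tumors and 348, 254 and 291 in tubule cells. Pck1 (chr2:173153048-173159273, plus strand), the cytosolic PEP carboxykinase, had 10.3, 1988 and 402 FPKM in primary tumors, 0.274, 0.0970 and 0 in metastases, 18.5, 102 and 3.99 in allograft tumors and 2179, 1356 and 1171 in tubule cells. Fbp1 (chr13:62864753-62888282, minus strand), the liver and kidney fructose bisphosphatase, had 17.4, 1116 and 216 FPKM in primary tumors, 1.75, 2.71 and 2.38 in metastases, 2.33, 4.79 and 0.940 in allograft tumors and 652, 740 and 719 in tubule cells. In all 3 genes primary tumor 2 reached the tubule level, primary tumor 3 stood between and primary tumor 1 was low.

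G6pc changed by -8.18 ± 1.31 in metastases (adjusted p = 3.00e-04) and -7.94 ± 1.31 in allograft tumors (adjusted p = 3.24e-04). Pck1 changed by -10.40 ± 1.59 in metastases (adjusted p = 2.24e-04) and -6.13 ± 1.59 in allograft tumors (adjusted p = 0.00554). Fbp1 changed by -7.76 ± 1.11 and -7.72 ± 1.11 in metastases and allograft tumors (adjusted p = 1.52e-04 and 1.36e-04). These 6 falls held under every alternative run. In primary tumors none of the 3 was called on the deposited scale (G6pc -3.18 ± 1.31, adjusted p = 0.0620, Pck1 -2.86 ± 1.59, adjusted p = 0.151, Fbp1 -2.10 ± 1.11, adjusted p = 0.134). There G6pc was called lower under TPM (-4.18, adjusted p = 0.0130), median-of-ratios (-3.81, adjusted p = 0.0337) and quantile scaling (-3.86, adjusted p = 0.0447), and Fbp1 under TPM (-3.19, adjusted p = 0.0248). Without primary tumor 2 all 3 were called lower (G6pc -4.79, Pck1 -4.49 and Fbp1 -3.48, adjusted p = 0.00288, 0.0241 and 0.00619). The proximal tubule markers lay in the same order, with 72.8, 3559 and 767 FPKM in primary tumors 1 to 3, and their part in these levels was not tested. In allograft tumors 1 to 3 the Pck1 levels of 18.5, 102 and 3.99 FPKM lay beside adipocyte marker sums of 506, 2243 and 191 FPKM over 5 genes, with Adipoq, the first of them, at 79.5, 218 and 13.7 FPKM. That sum was 20.6 to 40.6 FPKM in metastases, where Pck1 was lowest, and 10.95 to 19.5 in tubule cells, where Adipoq was at 0 throughout and Pck1 was high, and the part of fat cells in the allograft Pck1 was not tested.

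Fbp2 (chr13:62836877-62858422, minus strand), the muscle fructose bisphosphatase, is the neighbour of Fbp1 on chromosome 13. It had 14.4, 10.2 and 3.82 FPKM in primary tumors, 12.8, 17.7 and 19.6 in metastases, 0.508, 1.31 and 0.295 in allograft tumors and 26, 26.8 and 26.1 in tubule cells. Allograft tumors stood apart at the low end and metastases lay nearest to the tubule cells. Its fall was -4.05 ± 0.38 in allograft tumors (adjusted p = 1.14e-05), under every alternative run, and in metastases it was not called (-0.64 ± 0.38, adjusted p = 0.153) except under TPM (-1.65, adjusted p = 0.00179) and median-of-ratios scaling (-1.23, adjusted p = 0.0140). In primary tumors the fall of -1.54 ± 0.38 (adjusted p = 0.00669) was -0.83 without primary tumors 2 and 3, which leaves a single primary library. Fbp2 made 45.3, 0.910 and 1.74% of summed fructose bisphosphatase FPKM in primary tumors, 86.7 to 89.2% in metastases, 17.9 to 23.9% in allograft tumors and 3.50 to 3.84% in tubule cells. In metastases the lung epithelium markers summed to 12180, 16860 and 19330 FPKM in libraries 1 to 3, in the same order as Fbp2, and their part was not tested.

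Pck2, the mitochondrial PEP carboxykinase, had 8.95, 5.26 and 7.83 FPKM in primary tumors, 9.25, 9.93 and 7.99 in metastases, 9.51, 8.18 and 13.3 in allograft tumors and 4.24, 5.35 and 4.02 in tubule cells. It was called higher in primary tumors (0.57 ± 0.22, adjusted p = 0.0483), metastases (0.86 ± 0.22, adjusted p = 0.00521) and allograft tumors (1.02 ± 0.22, adjusted p = 0.00192), close to the shift of all genes, and no call held under any of the 3 scalings. Under TPM the changes were -0.36, -0.054 and -0.22. As a share of the pair, Pck2 made 46.4, 0.264 and 1.91% in primary tumors, 97.1 to 100% in metastases, 7.41 to 76.9% in allograft tumors and 0.194 to 0.393% in tubule cells. Pcx, the pyruvate carboxylase that starts gluconeogenesis in mitochondria, had 3.90, 263 and 61.3 FPKM in primary tumors, 12.1, 12.2 and 12.2 in metastases, 7.05, 19.0 and 2.21 in allograft tumors and 121, 118 and 133 in tubule cells. It fell in allograft tumors (-3.96 ± 1.15, adjusted p = 0.0103) and metastases (-3.25 ± 1.15, adjusted p = 0.0272), and the metastasis call ended when any 1 of the 6 libraries was left out (-3.28 to -3.20, adjusted p = 0.0576 to 0.0641).

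**Figure D4:**
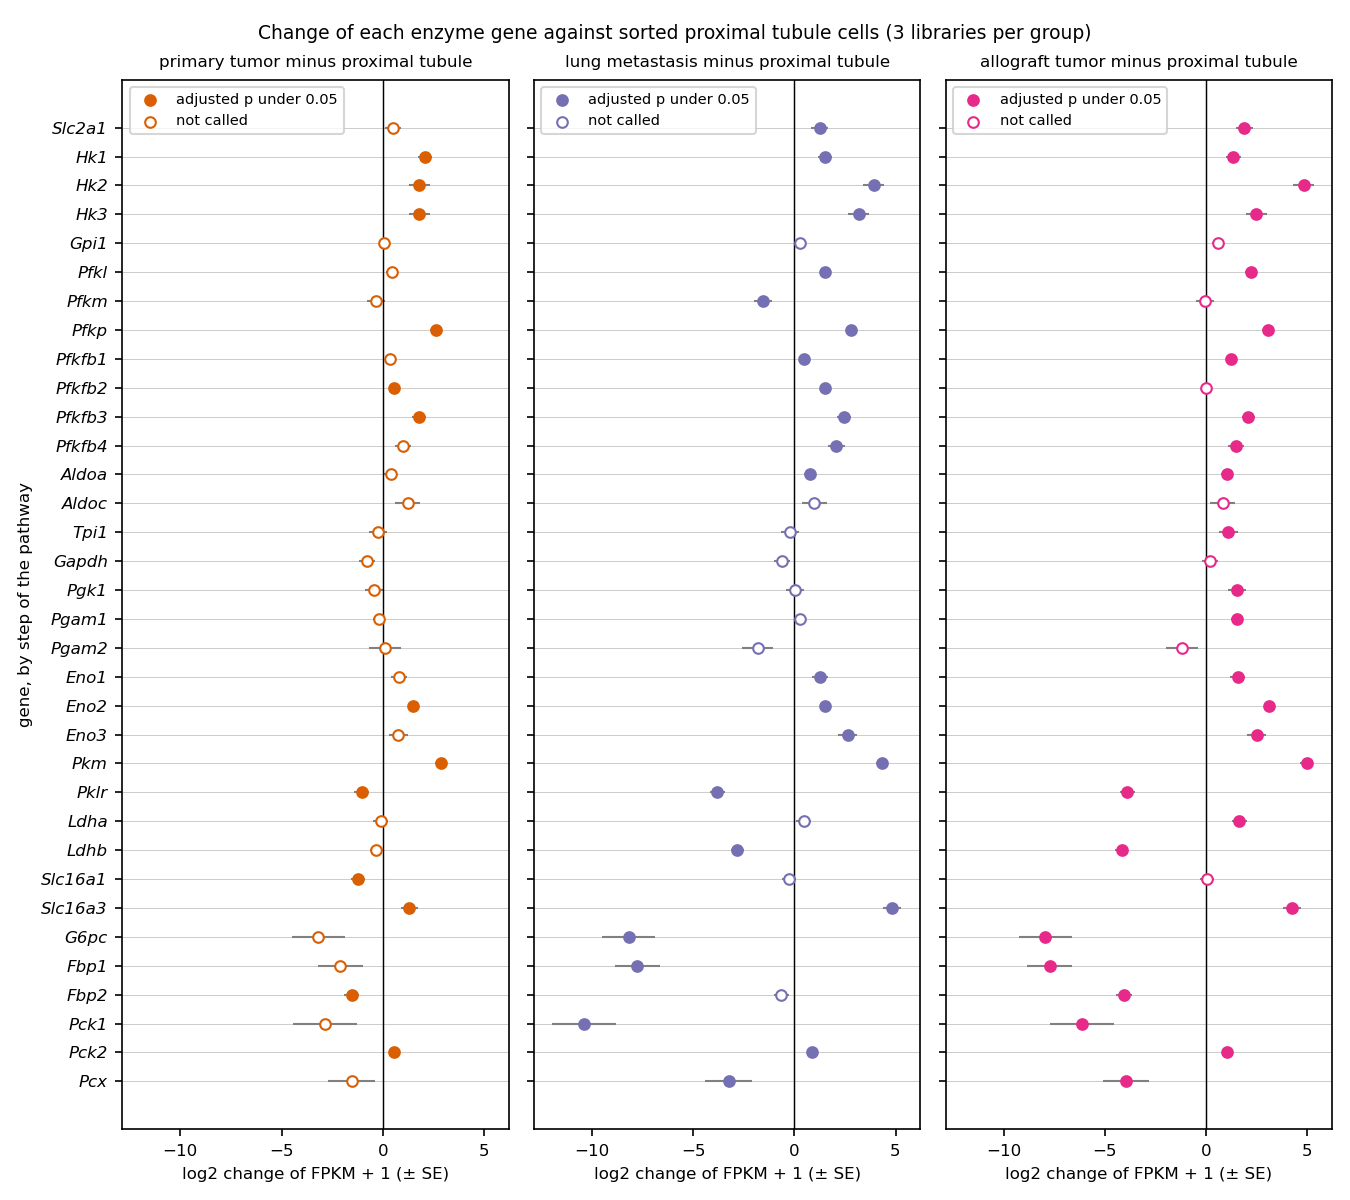
Log2 change of FPKM + 1 (± SE) of the 34 genes in primary tumors, metastases and allograft tumors against proximal tubule cells, 3 libraries per group (filled: adjusted p under 0.05, open: not called). Pkm, Hk2 and Slc16a3 lie furthest right and G6pc, Fbp1 and Pck1 furthest left in metastases and allograft tumors.

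Counted over the 11 steps with several listed genes, the isoform with the highest mean FPKM differed from that of tubule cells in 1 step in primary tumors (phosphofructokinase), 5 in metastases (phosphofructokinase, lactate dehydrogenase, monocarboxylate transport, fructose bisphosphatase and PEP carboxykinase) and 5 in allograft tumors (hexokinase, phosphofructokinase, PFKFB, lactate dehydrogenase and monocarboxylate transport). Single libraries did not all follow these group means. Pfkfb4 led PFKFB in allograft tumor 1 (38.6%), and Pfkfb3 and Pfkfb2 were near equal in allograft tumor 3 (35.8 and 35.5%). Slc16a1 led its step in allograft tumor 3 (57.3%) and Pfkp led in metastasis 3 (49.3%). Pfkfb3 led in primary tumor 3 (47.2%) and Pck2 in allograft tumor 3 (76.9%). Pgam1, Eno1, Aldoa and Pkm led their steps in every group. With Eno1b counted, Eno1b led enolase in tubule cells by the mean, though Eno1 led in tubule library 1 (51.7%).

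Ratios of opposed enzymes within a library do not depend on scaling either. The summed phosphofructokinase FPKM over that of fructose bisphosphatase was 1.54, 0.0529 and 0.301 in primary tumors, 7.37, 3.27 and 2.36 in metastases, 41.4, 17.2 and 98.3 in allograft tumors and 0.0441, 0.0441 and 0.0424 in tubule cells. Pyruvate kinase over PEP carboxykinase was 11.3, 0.0673 and 0.459 in primary tumors, 66.8, 44.1 and 44.0 in metastases, 33.3, 5.20 and 40.9 in allograft tumors and 0.0161, 0.0267 and 0.0391 in tubule cells. Every tumor library exceeded every tubule library in both ratios. Primary tumor 2 was the nearest to the tubule cells.

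Metastases and primary tumors came from mice of 1 labelled genotype, but primary tumors 2 and 3 were male and the metastases female by Xist and Ddx3y, so sex and group cannot be fully told apart. Of 34 members 6 were called higher in metastases and 5 lower (11.3% and 9.59% of all tested genes, 20.9% in either direction), the median member changed by 0.34 against 0.01 over all genes, and 15 members did not overlap (42.0% of all genes). Slc16a3 was higher by 3.52 ± 0.43 (adjusted p = 3.57e-04), Pkm by 1.47 ± 0.30 (adjusted p = 0.00836), Hk2 by 2.12 ± 0.52 (adjusted p = 0.0183) and Pfkfb2, Pfkl and Eno3 were the others. Ldhb (-2.49 ± 0.32, adjusted p = 4.60e-04), Pklr (-2.76 ± 0.36, adjusted p = 5.77e-04), Fbp1 (-5.66 ± 1.11, adjusted p = 0.00655), Pck1 (-7.54 ± 1.59, adjusted p = 0.00907) and G6pc (-5.00 ± 1.31, adjusted p = 0.0245) were lower. Primary tumor 1 had the lowest proximal tubule marker sum of the primary tumors. Against it alone the changes were 1.11 for Pkm, 0.68 for Hk2, 1.2 for Eno3 and 1.35 for Pfkl. They were -3.34 for Pck1, -2.5 for Fbp1 and -1.08 for G6pc. Its thick limb, distal tubule and collecting duct markers still summed to 326 FPKM, against 1.08 to 1.38 FPKM in metastases. With that single library its spread is taken to be that of the other groups, so only sizes of change are given here. The G6pc call ended without any 1 library other than primary tumor 1 (adjusted p = 0.0549 to 0.0878), and the Hk2 call without primary tumor 2 or 3 or metastasis 1 or 2 (adjusted p = 0.0651 to 0.0771). The higher calls numbered 3 without metastasis 1 or metastasis 2, and the lower calls 8 without primary tumor 1. The Eno3 call ended without any 1 library other than primary tumor 1 (adjusted p = 0.064 to 0.0891). The Pfkl call ended without primary tumor 2 or metastasis 1 or 2 (adjusted p = 0.0593 to 0.0767). In a fit of these 2 groups alone 3 were higher and 2 lower. There the calls of Pkm, Hk2, Pfkl, Fbp1, Pck1 and G6pc ended (adjusted p = 0.0551 to 0.129). Slc16a3, Pfkfb2, Ldhb and Pklr alone held under every alternative run.

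Allograft tumors against primary tumors gave 13 members higher and 6 lower (20.5% and 21.1% of all tested genes, 41.6% in either direction), with a median of 0.59 against -0.02 over all genes and 17 members without overlap (43.7% of all genes). Pkm (2.11 ± 0.30, adjusted p = 6.34e-04), Ldha (1.76 ± 0.38, adjusted p = 0.00449), Pgk1 (1.98 ± 0.45, adjusted p = 0.00608), Pgam1 (1.72 ± 0.29, adjusted p = 0.00144), Pfkl (1.76 ± 0.28, adjusted p = 0.00109), Hk2 (3.03 ± 0.52, adjusted p = 0.00143), Eno2 (1.62 ± 0.15, adjusted p = 9.05e-05) and Slc16a3 (2.94 ± 0.43, adjusted p = 6.65e-04) rose, under every alternative run. Ldhb (-3.85 ± 0.32, adjusted p = 4.61e-05), Fbp1 (-5.62 ± 1.11, adjusted p = 0.00301), Fbp2 (-2.51 ± 0.38, adjusted p = 7.95e-04) and Pklr (-2.84 ± 0.36, adjusted p = 3.63e-04) fell under every alternative run. Fbp1 was -2.46 against primary tumor 1 alone. G6pc changed by -4.76 ± 1.31 (adjusted p = 0.0150), by -3.14 without primary tumor 2 (adjusted p = 0.0325) and by -0.83 against primary tumor 1 alone. Its call ended without primary tumor 3 (adjusted p = 0.0542). Against that single library, primary tumor 1, only sizes of change are given.

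Between allograft tumors and metastases 6 members were higher and 3 lower (10.4% and 13.3% of all tested genes, 23.7% in either direction), the median member changed by 0.27 against 0.03, and 14 did not overlap (48.5% of all genes). Fbp2 (-3.40 ± 0.38, adjusted p = 1.58e-04), Pfkfb2 and Ldhb (-1.36 ± 0.32, adjusted p = 0.0112) fell and Eno2 rose (1.61 ± 0.15, adjusted p = 5.66e-05), and these 4 calls held under every alternative run. The rises of Ldha (1.19 ± 0.38, adjusted p = 0.0436), Pgk1 (1.5 ± 0.45, adjusted p = 0.0354), Pgam1 (1.25 ± 0.29, adjusted p = 0.0117), Pfkm (1.5 ± 0.45, adjusted p = 0.0353) and Pfkfb1 (0.76 ± 0.20, adjusted p = 0.0185) each ended without at least 1 single library. The 6 higher calls became 1 without metastasis 3, 2 without metastasis 2, and 3 without allograft tumor 1 or allograft tumor 3. Pkm (0.64 ± 0.30, adjusted p = 0.155), Hk2 (0.91 ± 0.52, adjusted p = 0.239) and Slc16a3 (-0.58 ± 0.43, adjusted p = 0.375) were not called between these 2 groups.

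Other genes around the pathway were taken from 4 lists, whose counts stand against 48.2% higher and 4.90% lower over all tested genes in primary tumors, 54.0% and 14.4% in metastases and 52.2% and 16.9% in allograft tumors. Of 44 further sugar, lactate and mitochondrial shuttle genes, 38 were tested, and in primary tumors 5 were higher and 3 lower than in tubule cells, in metastases 7 and 23, and in allograft tumors 9 and 23. Their medians were -0.40, -1.43 and -1.34, against 0.59, 0.68 and 0.66 over all genes. In metastases the sodium-glucose cotransporter gene Slc5a2 (-7.88 ± 1.00, adjusted p = 6.93e-05) and the lactate cotransporter gene Slc5a12 (-7.41 ± 0.92, adjusted p = 6.21e-05) fell. Slc2a2, the transporter gene through which tubule cells release glucose, had 8.70, 167 and 31.8 FPKM in primary tumors, 0.241 to 0.739 in metastases, 0.133 to 0.655 in allograft tumors and 98.8 to 126 in tubule cells. Emb, whose product escorts monocarboxylate transporters to the membrane, rose to 49.9 ± 4.09 FPKM in metastases, against 3.32 ± 0.691 FPKM in tubule cells (3.57 ± 0.23, adjusted p = 1.54e-06). Pdk1, a kinase that shuts pyruvate out of the citric acid cycle, had 17.7 ± 5.83 FPKM in metastases, 25.7 ± 5.47 in allograft tumors and 5.53 ± 3.04 in tubule cells (1.58 ± 0.35, adjusted p = 0.00216 and 2.12 ± 0.35, adjusted p = 3.08e-04).

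Of 19 pentose phosphate and glycogen genes, 7 were higher and 0 lower in primary tumors, 9 and 3 in metastases and 11 and 3 in allograft tumors (medians 0.45, 0.49 and 0.91), with shares of higher genes near or under 48.2%, 54.0% and 52.2% of all tested genes. The glycogen phosphorylase genes Pygb (2.09 ± 0.20, adjusted p = 1.22e-05) and Pygl (3.07 ± 0.25, adjusted p = 5.20e-06) rose in metastases, while the liver glycogen synthase gene Gys2 fell (-2.93 ± 0.67, adjusted p = 0.00272). Of 14 hypoxia response genes, 0 were higher and 1 lower in primary tumors. These were 7 and 1 in metastases and 8 and 1 in allograft tumors (medians 0.18, 0.88 and 1.41). The share called higher lay near that of all tested genes in metastases (54.0%) and allograft tumors (52.2%) and under it in primary tumors (48.2%). Against primary tumors 5 were higher and 1 lower in metastases (11.3% and 9.59% of all tested genes), with a median of 0.63 against 0.01. In allograft tumors against primary tumors these were 10 and 1 (20.5% and 21.1%), with a median of 1.39 against -0.02. Ankrd37, a direct target of the hypoxia-inducible factor, had 2.31, 1.77 and 2.10 FPKM in primary tumors, 36.6, 22.3 and 14.0 in metastases, 12.9, 9.47 and 14.4 in allograft tumors and 1.11, 0.644 and 0.697 in tubule cells. Hif1a, which encodes that factor's regulated subunit, rose by 2.07 ± 0.16 in allograft tumors (adjusted p = 4.66e-06), and by 1.02 ± 0.16 and 1.03 ± 0.16 in primary tumors and metastases (adjusted p = 4.89e-04 and 2.26e-04), where median-of-ratios scaling left 0.38 (adjusted p = 0.0859) and 0.44 (adjusted p = 0.0380). Of 14 regulators, 3 were higher and 7 lower in primary tumors (48.2% and 4.90% of all tested genes). These were 3 and 6 in metastases (54.0% and 14.4%) and 3 and 7 in allograft tumors (52.2% and 16.9%). Hnf4a, a main activator of gluconeogenic genes, had 9.10, 167 and 54.4 FPKM in primary tumors, 0.0641 to 0.242 in metastases, 0.213 to 1.23 in allograft tumors and 203 to 229 in tubule cells (-2.28 ± 0.76, -7.62 ± 0.76 and -7.21 ± 0.76, adjusted p = 0.0281, 1.71e-05 and 2.09e-05), and it is also 1 of the 8 proximal tubule markers. Myc, an activator of glycolytic genes in many tumors, had 11.1, 3.22 and 5.79 FPKM in primary tumors, 9.31 to 12.1 in metastases, 14.5, 17.7 and 46.2 in allograft tumors and 10.6 to 19.1 in tubule cells. It was called lower in primary tumors (-1.25 ± 0.46, adjusted p = 0.0416) and in neither other group.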

How the data were processed

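Total RNA of 12 libraries was sequenced, and 1 table of FPKM per Ensembl gene was deposited by the authors. The tools named per the submitters' processing notes are Salmon and bcl2fastq 2.17.1.14, with the GRCm38/mm10 build. The sources used here do not say how Salmon output became FPKM. The deposited FPKM were used without rescaling, and 24189 of 24432 gene identifiers matched a symbol in GENCODE M21. Log2(FPKM + 1) of the 4 groups was fitted in 1 model with limma 3.58.1 in R 4.3.3 (mean-variance trend), over the 16313 genes that reached 1 FPKM in at least 3 libraries, with Benjamini-Hochberg adjustment over all of them in each of 6 comparisons. The limma script was tested on simulated data. Isoform shares were compared by a two-sided exact permutation test in SciPy 1.17.1, which cannot go below 0.10 with 3 against 3 libraries. Tables and figures were made with Python 3.11.15, pandas 2.3.3 and matplotlib 3.10.9.

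Members and gene lists were chosen with earlier results of these data known, so no list is independent support. Values per library are given for the leading gene of each step and for members called against proximal tubule. Of the other lists, up to 3 called genes per direction and comparison, the most abundant gene, and Slc2a2, Slc5a2, Hif1a, Hnf4a and Myc may be named. Alternatives were pseudocounts of 0.1 and 5, no filter and a filter of 5 FPKM, TPM, median-of-ratios and quantile scaling, a fit of only 2 groups, a replicate block, and leaving out each library. A further alternative, for the aldolase step, is not reported here. A fit without primary tumors 2 and 3 and the sum of Eno1 and Eno1b were added after seeing the data. Depth was estimated from steps between low FPKM values, and shared sequence as 31-base stretches common to transcripts of different listed genes. Motifs were searched on both strands of the 250 bases before each RefSeq start (GRCm38.p6).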

Additional observations from a re-analysis of the deposited data

How the results depend on the processing

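Of 103 called changes of members over the 6 comparisons, 51 held under every alternative run and 65 under the 3 scalings. Of the 64 against proximal tubule, these were 31 and 35. Higher calls in primary tumors against proximal tubule (10) were 6 with a pseudocount of 5, 5 under TPM and 3 under quantile scaling. Lower calls (3) were 14 under TPM, 7 under median-of-ratios and 7 under quantile scaling, and 1 in a fit of only these groups. In metastases the higher calls (17) were 9 under TPM and 11 under quantile scaling, and the lower calls (7) were 15 under TPM. In allograft tumors the higher calls (20) were 8 under TPM, 13 under median-of-ratios and 13 under quantile scaling, and the lower calls (7) were 13 under TPM. In metastases against primary tumors the higher calls (6) were 3 and the lower calls (5) were 2 in a fit of only these groups. In allograft tumors against primary tumors the higher calls (13) were 8 under TPM, and against metastases (6) they were 2 under TPM. Some changes against proximal tubule turned sign. In primary tumors Pfkfb2 became -0.48 under TPM, -0.066 under median-of-ratios and -0.029 under quantile scaling, and Pck2 -0.36 under TPM and -0.26 under quantile scaling. In metastases Pfkfb1 became -0.019 under TPM and -0.81 under quantile scaling, Aldoa -0.28 and Pck2 -0.054 under TPM. In allograft tumors Aldoa became -0.38, Tpi1 -0.31 and Pck2 -0.22 under TPM. The sum behind TPM includes Mir6236, and the cause of these changes of sign was not tested. Leaving out 1 library gave 8 to 10 higher and 1 to 10 lower calls in primary tumors, 13 to 16 and 6 to 6 in metastases, and 19 to 20 and 7 to 7 in allograft tumors, against proximal tubule. It gave 3 to 9 and 4 to 8 in metastases against primary tumors, 10 to 14 and 5 to 8 in allograft tumors against primary tumors, and 1 to 6 and 3 to 3 in allograft tumors against metastases. Changes of leading isoform were 1 to 1, 5 to 5 and 4 to 6 in primary tumors, metastases and allograft tumors. With the replicate number as a block 96 of 103 calls held and 7 ended, among them Pck2 in primary tumors (adjusted p = 0.0714), Aldoa in metastases (0.0612) and Tpi1 in allograft tumors (0.0703), all limma against proximal tubule. Over 18 pairs of libraries with 1 number the deviations correlated at -0.0433 to 0.0977, so the numbers were not taken to pair libraries. Tubule libraries were shallower, which limits genes near 0 there.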

Other observations

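The metastases followed an order over many members. Metastasis 1 had the highest and metastasis 3 the lowest level of the 3 in 22 of 34 members (64.7%), against 3366 of 16313 tested genes (20.6%) and 13 of 14 hypoxia response genes (92.9%). The median log2 difference of metastasis 1 over metastasis 3 was 0.54 over the members, 0.87 over the hypoxia response genes and 4.51e-04 over all tested genes. Lung epithelium markers ran the other way, at 12180, 16860 and 19330 FPKM in metastases 1 to 3, as did 6 endothelial markers at 281, 397 and 477 FPKM. Their part in the order was not tested. Primary tumor 2 was the highest of the primary tumors in 17 of 34 members, against 6304 of all tested genes (38.6%).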
